A study of Homo sapiens with 6 samples.

Results

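Gasdermins are proteins held inactive in the cytosol until a protease cuts them, after which their N-terminal parts form pores in the plasma membrane. Inflammasomes recruit the protease CASP1 through the adaptor PYCARD, also called ASC. Active CASP1 cuts GSDMD and matures the cytokines IL1B and IL18, which leave through the pores, and NINJ1 then ruptures the membrane. This lytic death is pyroptosis, and it is best known in monocytes, macrophages and epithelia.

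Described here are 10 such genes: the gasdermin family GSDMA, GSDMB, GSDMC, GSDMD, GSDME and PJVK, the membrane-rupture gene NINJ1, the adaptor gene PYCARD, and the cytokine genes IL18 and IL1B. They were taken by symbol from the probe-to-gene table, with all their probe sets, 13 of 49372 on the array. GSDMA, GSDMD and PYCARD had 2 probe sets each and the other 7 genes had 1. The choice did not use measured differences, but it was made with earlier results of these data known.

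Total RNA was hybridised to 1 Affymetrix array per sample and came from NCI-H929, by its label a line from human multiple myeloma. In the 3 PRMT5_down samples the cells had received a PRMT5-lowering lentivirus. PRMT5 is the enzyme that makes most symmetric dimethylarginine. The 3 control samples had received a control lentivirus. The titles call both constructs sponges, while the treatment protocol names a PRMT5 short hairpin RNA in the pLKO.1 vector. All were in the same line, under puromycin selection and collected together, and the stated aim was to find possible PRMT5 target genes. Both groups carry replicate numbers 1 to 3. The labels name no separate cultures, so the spread behind each p-value is that of these arrays and may be technical only.

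The values are log2 signals, with array medians of 5.29 to 5.32. A signal was called above background when it exceeded that of 95% of 330 olfactory receptor genes on its own array, a level between 4.90 and 5.02. PRMT5 had signals of 8.63, 9.65 and 9.37 in PRMT5_down, against 9.93, 10.35 and 10.30 in control, a difference of -0.98 (SE 0.28). All 3 PRMT5_down values lay under all 3 controls, at the smallest p that 3 arrays against 3 allow (two-sided exact permutation p = 0.1), but over all genes it did not pass (limma adjusted p = 1). With the replicate number as a block in the fit, the SE for PRMT5 was 0.118 and the limma adjusted p was 0.211. Of 10 plasma cell markers, 6 were above background on no array, IRF4, CD38 and TNFRSF17 among them, and SDC1, XBP1 and PRDM1 were above it on all 6. Among these SDC1 was close to background, with 4.99 on PRMT5_down replicate 1 against a background of 4.95 there. All 10 had a mean difference below 0, as 55.5% of all genes did, with 0 at an unadjusted limma p under 0.05 and 1 with the replicate block. All 8 erythroid markers measured were above background on all 6 arrays, with summed linear signals of 9892 to 14781 in PRMT5_down and 6849 to 10423 in control. Their mean difference was above 0 for all 8, as for 43.3% of all genes, led by AHSP at 1.58 (SE 0.58) and SLC4A1 at 1.00 (SE 0.36). With the block the SE was 0.143 for AHSP (limma adjusted p = 0.0875) and 0.135 for SLC4A1 (limma adjusted p = 0.219). At an unadjusted limma p under 0.05 stood 2 of the 8, where 0.822% of all genes did, and 6 with the block, where 8.25% did, with 0 called in either fit. Their part in the results below was not tested. Of 10 monocyte and macrophage markers, 6 were above background on no array, CD14 and FCN1 among them, and LYZ, CD68 and CSF1R were above it on all 6. CSF1R was close to background, with 5.04 on PRMT5_down replicate 1 against a background of 4.95 there. The summed signals of the 10 were 737 to 1085 in PRMT5_down and 679 to 1116 in control. In bulk RNA, fewer cells of a type and less RNA per cell cannot be told apart.

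Of the 10 pyroptosis effectors, 4 were above the array background throughout. By the brighter probe set of each gene, NINJ1, IL18, GSDMB and GSDMD were above background on all 6 arrays. PYCARD was above it on 1 array, and GSDMA, GSDMC, GSDME, PJVK and IL1B on none. Of all 18132 genes, 56.3% exceeded background throughout and 37.7% on no array. None of the 13 probe sets passed the test between PRMT5_down and control.

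**Figure D1:**
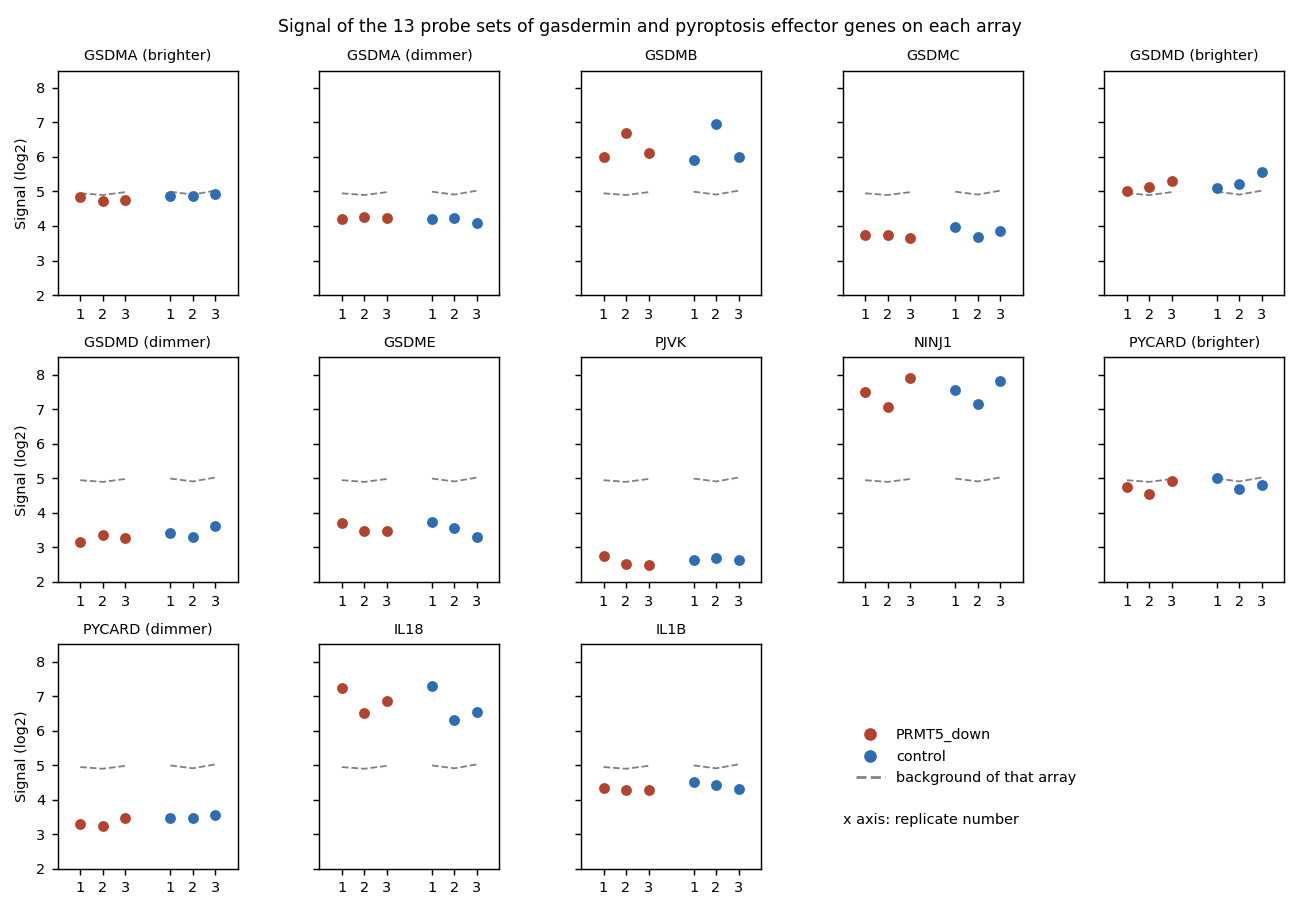
Log2 signal of each of the 13 probe sets on the 6 arrays, 1 point an array, with PRMT5_down replicates 1 to 3 at the left and control replicates 1 to 3 at the right of each panel. The dashed line is the background of each array, and the points of NINJ1, IL18 and GSDMB stand at least 0.91 above it while those of GSDMC, GSDME and PJVK stand at least 1.01 below it.

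The contrast between NINJ1, the member furthest above background, and members at or below it can be set beside their promoter sequences. From the RefSeq table on GRCh38.p14 a start was kept here for 6 of the 10 genes. That none was kept for the rest does not show that the table lacks their starts. For 4 of the 6 genes the 250 bases before a listed start are printed 5′ to 3′. Every CG dinucleotide, the site of DNA methylation, is in capitals. These windows lie at chr9:93134252-93134501 for NINJ1, chr7:24757465-24757714 for GSDME, chr16:31202761-31203010 for PYCARD and chr2:112836780-112837029 for IL1B, all on the minus strand.
NINJ1: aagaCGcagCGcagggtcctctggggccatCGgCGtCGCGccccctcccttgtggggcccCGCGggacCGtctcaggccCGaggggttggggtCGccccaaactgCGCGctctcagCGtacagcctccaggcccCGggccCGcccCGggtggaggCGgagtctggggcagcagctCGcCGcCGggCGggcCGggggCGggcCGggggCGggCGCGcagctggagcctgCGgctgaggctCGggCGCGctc
GSDME: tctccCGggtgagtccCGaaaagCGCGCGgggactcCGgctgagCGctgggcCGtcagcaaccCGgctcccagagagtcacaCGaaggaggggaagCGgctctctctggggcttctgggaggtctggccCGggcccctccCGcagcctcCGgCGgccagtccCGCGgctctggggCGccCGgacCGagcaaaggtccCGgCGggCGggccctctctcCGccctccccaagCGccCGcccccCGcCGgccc
PYCARD: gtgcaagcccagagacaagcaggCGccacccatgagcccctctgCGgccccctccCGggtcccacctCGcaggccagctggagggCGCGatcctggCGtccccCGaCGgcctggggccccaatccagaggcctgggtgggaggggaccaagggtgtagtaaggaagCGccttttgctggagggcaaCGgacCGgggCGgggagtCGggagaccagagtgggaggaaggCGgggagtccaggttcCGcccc
IL1B: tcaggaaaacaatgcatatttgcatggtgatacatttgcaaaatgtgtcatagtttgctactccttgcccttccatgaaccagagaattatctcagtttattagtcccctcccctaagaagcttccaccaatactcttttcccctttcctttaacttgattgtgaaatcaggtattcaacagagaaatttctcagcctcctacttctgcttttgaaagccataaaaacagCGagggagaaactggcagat

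The NINJ1 window held 32 CG dinucleotides, a count reached by 9.5% of the 35116 promoters in the table, whose median was 11. The GSDME window held 28, reached by 15.9% of promoters, and the PYCARD window 16, reached by 41.0%. The IL1B window held 1, which 93.9% of promoters reach. CG reads the same on both strands, so each count covers both. Of these 4 genes NINJ1, with the most CG dinucleotides, was above background on all arrays, while GSDME, with the next most, was above it on none. The 4 are only a part of the genes with a start kept. PJVK had several starts, whose windows held 25, 23 and 4 CG dinucleotides, and the GSDMA window held 4. Neither PJVK nor GSDMA was above background on any array. No start was kept here for GSDMB, IL18, GSDMD and GSDMC. Of the genes above background on all arrays, only NINJ1 therefore has a window. With GSDMB, IL18 and GSDMD missing, the windows cannot show whether CG count goes with signal among these genes. Methylation was not measured here, and the counts describe only the letters in these windows.

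GSDMD, the gasdermin cut by CASP1, CASP4 and CASP5 and the usual pore of pyroptosis, was only just above background. Its brighter probe set had signals of 5.02, 5.14 and 5.30 in PRMT5_down and 5.11, 5.21 and 5.57 in control. Each PRMT5_down value lay under the control of its number, by 0.09, 0.07 and 0.27, but the groups overlapped. These signals exceeded background by 0.07 to 0.55, so a difference here is measured close to the floor of the array. The group means were 5.15 ± 0.14 in PRMT5_down and 5.30 ± 0.24 in control (SD, n = 3 each), a difference of -0.14 (SE 0.15, limma adjusted p = 1). Without control replicate 3 it was -0.007. The dimmer probe set had 3.15, 3.37 and 3.28 in PRMT5_down and 3.41, 3.31 and 3.61 in control, below background on every array. The suffix x marks probe sets that may also bind other transcripts.

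GSDMB, the gasdermin cut by the killer-cell protease GZMA, was well above background. It had signals of 6.01, 6.68 and 6.12 in PRMT5_down and 5.90, 6.96 and 6.01 in control. Replicate number 2 was the highest in both groups, and the groups overlapped fully. The means were 6.27 ± 0.36 in PRMT5_down and 6.29 ± 0.58 in control (SD, n = 3 each), a difference of -0.02 (SE 0.33). Within numbers 1, 2 and 3 it was 0.11, -0.28 and 0.11, so number 2 went the other way from the rest.

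GSDMA, a gasdermin known from skin, lies near GSDMB on chromosome 17 but was not above background on any array. Its brighter probe set had 4.84, 4.73 and 4.74 in PRMT5_down and 4.87, 4.86 and 4.93 in control. Of the 13 probe sets this was the only one whose groups did not overlap, with PRMT5_down on the lower side, as for 2.43% of all probe sets. None of the 13 was higher without overlap, as 1.49% of all were. Its dimmer probe set had 4.20, 4.27 and 4.23 in PRMT5_down and 4.19, 4.22 and 4.09 in control. The probe sets disagreed in direction, with differences of -0.12 (SE 0.08) for the brighter and 0.07 (SE 0.08) for the dimmer.

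GSDMC, which CASP8 can cut, had 3.74, 3.75 and 3.66 in PRMT5_down and 3.98, 3.69 and 3.85 in control. GSDME, the gasdermin that turns apoptosis into lytic death when an apoptotic caspase cuts it, had 3.72, 3.47 and 3.47 in PRMT5_down and 3.74, 3.56 and 3.30 in control. PJVK, the family member known for hearing loss when mutated, had 2.74, 2.51 and 2.50 in PRMT5_down and 2.62, 2.69 and 2.62 in control. All of these overlapped between the groups and were below background throughout. As for each probe set given as below background, a difference between them is one of background-level signal and is not read as a fold change of the gene. The PJVK signals exceeded those of only 6.4% to 18.5% of the olfactory receptor genes, and the GSDME signals 41.2% to 67.3%.

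NINJ1, the executor of membrane rupture, had the clearest signal over background of the 10 genes. It had 7.50, 7.06 and 7.91 in PRMT5_down and 7.56, 7.14 and 7.83 in control, 2.16 to 2.93 above background. In both groups number 3 was the highest and number 2 the lowest. The means were 7.49 ± 0.43 in PRMT5_down and 7.51 ± 0.35 in control (SD, n = 3 each), a difference of -0.02 (SE 0.27). Within numbers 1, 2 and 3 the difference was -0.06, -0.08 and 0.08. With the replicate number as a block, the 95% interval of the difference ran from -0.21 to 0.17, or 86.3% to 112.7% of control on the scale of array signal. Without the block it ran from -0.67 to 0.63, or 62.9% to 154.7% of control.

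PYCARD, the adaptor that joins sensors to CASP1, stood at background. Its brighter probe set had 4.75, 4.56 and 4.91 in PRMT5_down and 5.00, 4.69 and 4.82 in control, and only control replicate 1 exceeded background, by 0.01. The dimmer probe set had 3.30, 3.24 and 3.48 in PRMT5_down and 3.46, 3.47 and 3.55 in control, below background on all arrays. Its PRMT5_down values were under control within all 3 numbers, while those of the brighter probe set were not.

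The cytokines parted. IL18 was above background on all 6 arrays, with 7.23, 6.52 and 6.85 in PRMT5_down and 7.28, 6.32 and 6.54 in control. Number 1 was the highest in both groups. The means were 6.87 ± 0.36 in PRMT5_down and 6.71 ± 0.50 in control (SD, n = 3 each), a difference of 0.15 (SE 0.30), with -0.05, 0.20 and 0.31 within numbers 1, 2 and 3. IL18 rests on 1 probe set, whose suffix x means that it may also bind other transcripts. IL1B had 4.33, 4.29 and 4.28 in PRMT5_down and 4.50, 4.44 and 4.32 in control, below background on all arrays. Its difference was -0.12 (SE 0.08), lower within all 3 numbers, with the groups overlapping at control replicate 3.

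Over the 13 probe sets together, limma called 0 at an adjusted p under 0.05, as it called 0 (0%) of 49293 probe sets. At an unadjusted p under 0.05 stood 0 of 13, where 0.945% of all probe sets did. The unadjusted p ran from 0.157 for the dimmer probe set of PYCARD to 0.953 for GSDMB. With the replicate block limma again called 0 of 13 and 0% of all, and 0 of 13 had an unadjusted p under 0.05, where 8.56% of all probe sets did. Mean differences were above 0 for 3 probe sets, where 45.7% of all were, and below 0 for 10, where 53.1% of all were. Their median was -0.10, against -0.01 for all probe sets. PRMT5_down was lower within all 3 numbers for 4 probe sets, where 14.3% of all were, and higher within all 3 for 1, where 12.5% of all were. Of those 4, the probe sets of GSDMA, PYCARD and IL1B were not above background throughout, and that of GSDMD was above it by at most 0.55.

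**Figure D2:**
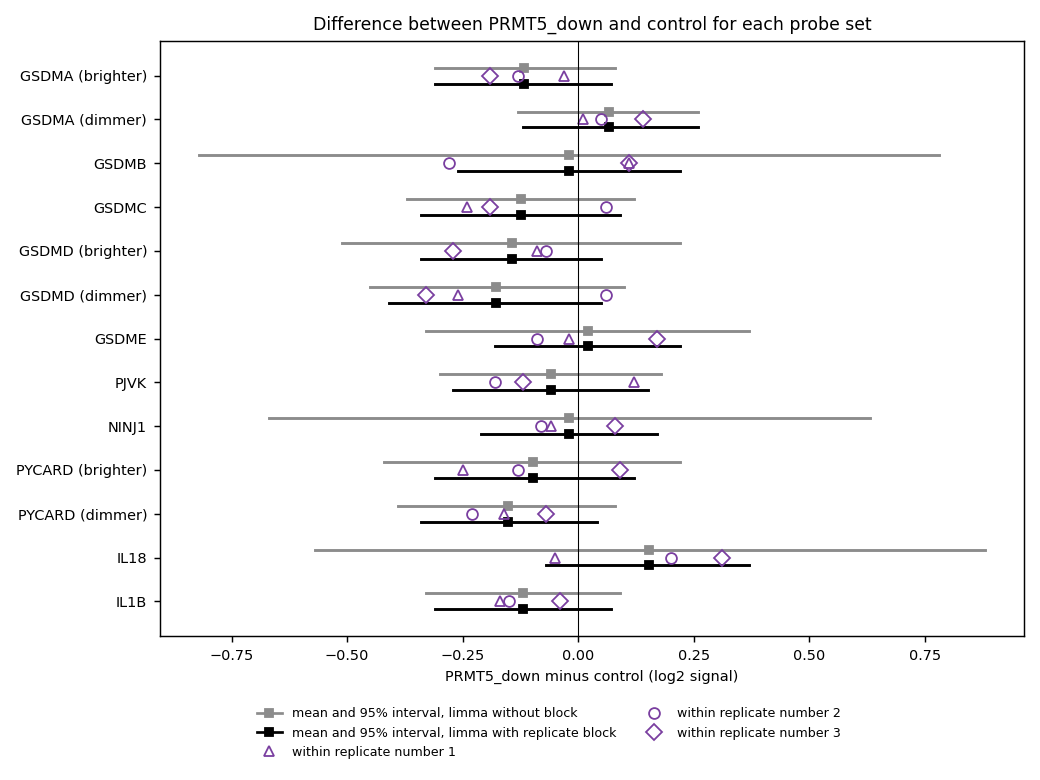
Difference of PRMT5_down minus control in log2 signal for each probe set. Open symbols are the differences within replicate numbers 1, 2 and 3, and squares with bars are the mean and its 95% interval from limma without (grey) and with (black) the replicate block. Every interval crosses 0, and those of GSDMB, NINJ1 and IL18 narrow most with the block.

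The replicate block leaves each mean difference as it is and changes its error. For GSDMB the SE was 0.33 without it and 0.10 with it, and for NINJ1 0.27 and 0.08. With the block the 95% interval ran from -0.26 to 0.22 for GSDMB, from -0.34 to 0.05 for GSDMD and from -0.07 to 0.37 for IL18. These intervals equal 83.7% to 116.3%, 79.0% to 103.8% and 95.4% to 129.6% of control. Without the block the ranges were wider, at 56.7% to 171.6% of control for GSDMB, 70.4% to 116.5% for GSDMD and 67.4% to 183.5% for IL18. The labels state no pairing, so the narrower ranges hold only if arrays of the same number belong together. A p that misses the threshold does not show equal levels.

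GSDMB, IL18 and NINJ1 varied more between replicate numbers than between groups. Averaging both arrays of a number, GSDMB stood at 5.96, 6.82 and 6.07 in numbers 1, 2 and 3, a range of 0.87. IL18 stood at 7.26, 6.42 and 6.70, a range of 0.84, and NINJ1 at 7.53, 7.10 and 7.87, a range of 0.77. GSDMD stood at 5.07, 5.18 and 5.44, a range of 0.37. A different number was highest for GSDMB (number 2), IL18 (number 1) and NINJ1 and GSDMD (number 3). Ranges as wide as that of GSDMB were found in 12.4% of the 10200 genes above background on all 6 arrays, as that of NINJ1 in 18.2% and as that of GSDMD in 60.5%, with IL18 between GSDMB and NINJ1. The labels do not say what a replicate number shares.

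**Figure D3:**
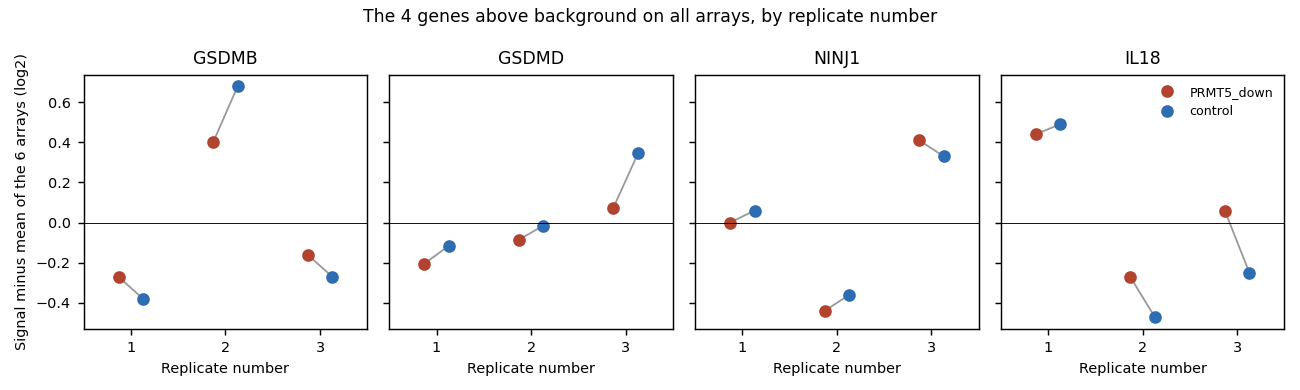
Log2 signal of GSDMB, GSDMD, NINJ1 and IL18, each minus its mean over the 6 arrays, by replicate number, with PRMT5_down at the left and control at the right of each joined pair. For GSDMB, NINJ1 and IL18 the numbers span 0.77 to 0.87, while the arrays of a joined pair differ by at most 0.31.

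GSDMB had the largest SD over the 6 arrays of the 4 genes above background. Of 10199 other genes above background on all arrays, GOLGA5, ERG28 and NGDN came nearest to its pattern, with root mean square distances of 0.066, 0.069 and 0.072 between centred log2 values over 6 arrays, where the median gene was at 0.438. GOLGA5 had 6.79, 7.48 and 6.84 in PRMT5_down and 6.67, 7.60 and 6.86 in control. All 3 genes were highest in number 2 in both groups, as GSDMB was. This follows from choosing them by their nearness to GSDMB on these arrays.

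Around these effectors, 6 lists of pathway genes were counted, each gene by its brightest probe set. Of their 63 genes limma called 0, as it called 0% of 18132 genes, and 0 had an unadjusted p under 0.05, where 0.822% of all genes did. With the replicate block it called 0, and 5 of 63, or 7.94%, had an unadjusted p under 0.05, where 8.25% of all genes did. That share is near the background. In mean difference 29 were higher, 33 lower and 1 at 0, where 43.3% of all genes were higher and 55.5% lower.

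Among 12 inflammasome sensors and their inhibitors, 4 were higher and 8 lower, with a median difference of -0.04 against -0.02 for all genes. The 5 above background on all arrays were NLRP1, CARD8, their inhibitors DPP8 and DPP9, and NEK7, a partner of NLRP3. NLRP1, a sensor that cuts itself to become active, had 6.10, 6.54 and 6.22 in PRMT5_down and 6.37, 7.02 and 6.36 in control, a difference of -0.30 (SE 0.22). Without control replicate 2 it was -0.078. It was lower within all 3 numbers, as 15.2% of all genes were, and with the block its unadjusted limma p was 0.0127 (adjusted p = 0.562). AIM2, the sensor of cytosolic DNA, was below background on all arrays, with 4.09, 4.75 and 3.91 in PRMT5_down and 3.60, 4.38 and 3.89 in control. Its signal was higher within all 3 numbers, as for 11.7% of all genes. With the block its unadjusted limma p was 0.0242 (adjusted p = 0.583). NLRP7 and NLRC4 were also below background, with differences of -0.15 (SE 0.10) and -0.09 (SE 0.11).

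Of 8 measured proteases that cut gasdermins or the cytokines, 2 were higher and 6 lower, with a median of -0.06. CASP4 and CASP8 were above background on all arrays, while the granzymes GZMA and GZMB and the neutrophil proteases ELANE and CTSG were on none. CASP1 had 5.65, 4.96 and 5.72 in PRMT5_down and 5.06, 4.96 and 4.96 in control, a difference of 0.45 (SE 0.21). It was above background on 5 of 6 arrays, not on control replicate 3, and the other controls lay near the background. The value was 0.692 without PRMT5_down replicate 2, 0.244 with array weights and 0.89 with its most variable probe set. It was high on PRMT5_down replicates 1 and 3 and equal to control in number 2, and did not pass (limma adjusted p = 1, and 0.562 with the block). The unadjusted limma p of CASP1 with the block was 0.0126. GZMA, ELANE and CASP5 differed by -0.12 (SE 0.10), -0.15 (SE 0.16) and -0.09 (SE 0.18).

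Of 15 relatives, receptors and antagonists of the cytokines, 9 were higher and 6 lower, with a median of 0.04, and 4 were above background on all arrays. These were IL1RAP, the shared receptor chain, IL18BP, the soluble IL18 antagonist, the inhibitory receptor SIGIRR and the alarmin HMGB1. IL18BP was close to background, with 5.03 on control replicate 1 against a background of 4.99 there. Both chains of the IL18 receptor, IL18R1 and IL18RAP, were above background on none. IL1A, a cytokine released on lysis, had 5.51, 4.71 and 5.32 in PRMT5_down and 5.22, 4.47 and 5.14 in control. It was above background on 4 arrays, in numbers 1 and 3 and not in 2, and its differences within numbers were 0.29, 0.24 and 0.18, higher in all 3 as for 11.7% of all genes. The mean difference was 0.24 (SE 0.28), and 0 without control replicate 2, with an unadjusted limma p of 0.0178 with the block (adjusted p = 0.568). IL36A, IL36B and IL37 were below background on all arrays, with differences of -0.19 (SE 0.17), 0.14 (SE 0.11) and -0.11 (SE 0.09).

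A list of 14 measured genes joined the ESCRT machinery, which removes membrane holed by gasdermin pores, and NINJ2, the relative of NINJ1. All 14 were above background on all 6 arrays. Of these 8 were higher and 6 lower, with a median of 0.03. VPS4B, an ATPase of the machinery, differed by 0.20 (SE 0.16), CHMP2A by -0.16 (SE 0.22), CHMP4B by 0.06 (SE 0.09) and CHMP4C by 0.12 (SE 0.17). NINJ2 had 6.90, 6.60 and 7.60 in PRMT5_down and 6.86, 6.56 and 7.25 in control, highest in number 3 and lowest in number 2 in both groups. How many of all genes have this order was not counted.

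Of 7 measured neighbours of GSDMA and GSDMB on chromosome 17, 3 were higher and 4 lower, with a median of -0.03, and 5 were above background on all arrays. ORMDL3, a regulator of sphingolipid synthesis, had 7.08, 7.31 and 7.31 in PRMT5_down and 7.06, 7.49 and 7.65 in control, a difference of -0.17 (SE 0.17). THRA, a thyroid hormone receptor, differed by 0.13 (SE 0.19). IKZF3, a lymphoid transcription factor, and ZPBP2 were below background on all arrays, at 2.69, 2.78 and 3.05 in PRMT5_down and 2.72, 2.78 and 2.78 in control for IKZF3.

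All 7 measured transcription factors known to drive gasdermin or IL1B genes were above background on all arrays, 3 higher, 3 lower and 1 with a mean difference of 0, with a median of 0.00. IRF2, which drives GSDMD transcription, had 8.22, 8.02 and 7.76 in PRMT5_down and 8.09, 7.91 and 7.30 in control, a difference of 0.23 (SE 0.23) that was 0 without control replicate 3, with an unadjusted limma p of 0.0425 with the block (adjusted p = 0.594). STAT3 had 11.23, 11.43 and 11.19 in PRMT5_down and 11.07, 11.16 and 11.08 in control, without overlap, where 1.26% of all genes were higher without overlap. Its difference was 0.18 (SE 0.10). IRF1 and RELA differed by -0.11 (SE 0.19) and 0.12 (SE 0.22).

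**Figure D4:**
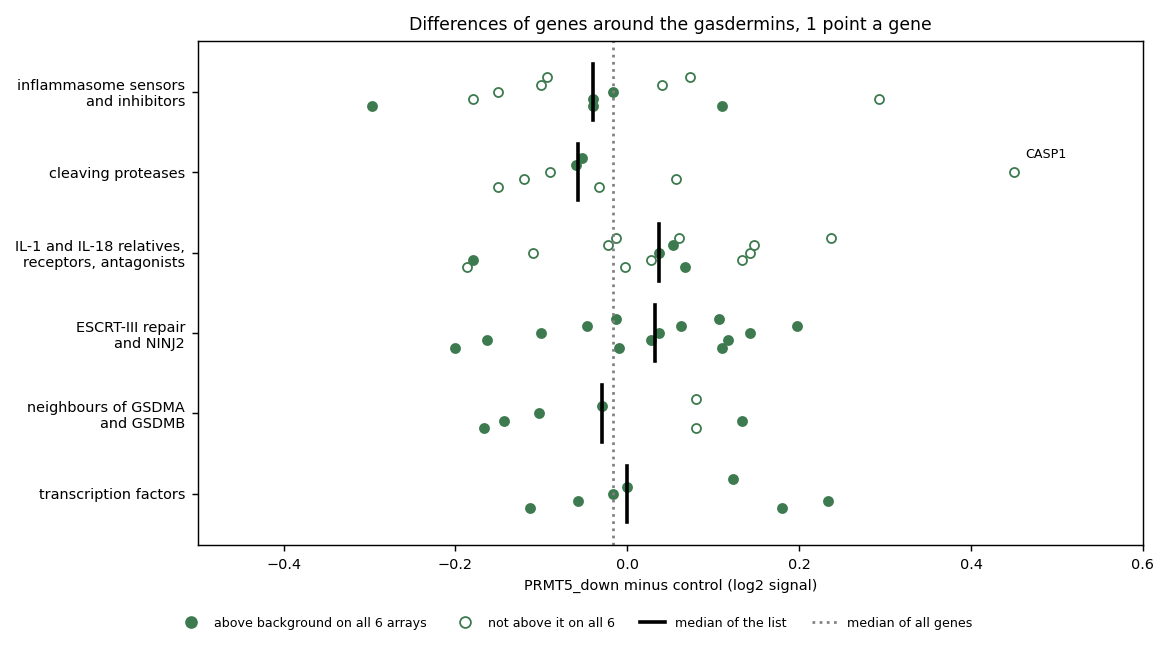
Difference of PRMT5_down minus control in log2 signal for the 63 genes of the 6 lists, 1 point a gene, filled where the gene was above background on all 6 arrays. Black bars are list medians, from -0.06 to 0.04, and the dotted line is the median of all genes, -0.02, and CASP1 lies furthest to the right, at 0.45.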

How the data were processed

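RNA of 6 samples was measured on 1 Affymetrix array each, 3 PRMT5_down and 3 control. The authors deposited log2 signals, 1 for each probe set and array and with 2 decimals. RMA is the tool that the submitters' processing notes name, and its version and chip definition file were not stated in the sources at hand. RMA brings the arrays close to 1 distribution, here with medians of 5.29 to 5.32, so it would hide a shift common to most genes.

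The file lists 49372 probe sets: 44988 with 1 gene symbol, 1832 with several, 2473 unnamed here and 79 controls. Symbols were updated through gene identifiers for 44961. All 49293 that are not controls were fitted, and separately 18132 genes by their brightest single-symbol probe set, by lmFit and eBayes of limma 3.58.1 in R 4.3.3, with Benjamini-Hochberg adjustment over each whole fit, a threshold of 0.05 and no filter on dim probe sets. The fit was tested on simulated data with independent noise, mostly smaller than the measured spread, and no effect of the replicate number. The planted changes were much larger than the differences of the members. The test therefore does not show that differences as small as theirs would be found. Only 3 arrays per group limit the precision.

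Arrays with the same replicate number deviated together from their group means (r = 0.82, 0.72 and 0.79 across genes, each above 0.1). Differences within numbers and a fit with the number as a block are therefore also given. The labels state no pairing. The planned fit has no block, and each SE and adjusted p is from it unless the block is named.

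The members, lists and markers were chosen with earlier results of these data known. Named genes are the 10 members, PRMT5, the 4 genes of each list with the smallest p, CASP1, and the 3 nearest in pattern to the most variable member above background. Other genes named with the lists or as markers, such as DPP8, CASP4, NINJ2, AHSP, PRG2 and KRT8, were chosen after their values were seen. Marker lists were of plasma cells, t(4;14) myeloma, erythroid cells, monocytes and macrophages, granulocytes, T and NK cells, and epithelia. Genome positions of probe sets were not used here, and protein sequences were not analysed. Alternatives were the block, normalization, filter, variance model, array weights, choice of probe set and left-out arrays.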

Additional observations from a re-analysis of the deposited data

How the results depend on the processing

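No probe set and no gene was called by limma under any setting run, and PRMT5 stayed lower throughout, at -0.98 with the replicate block and at -1.19 to -0.68 with 1 array left out. The replicate block changed no call, and probe sets at an unadjusted p under 0.05 numbered 466 without it and 4221 with it. Over 133 alternative values of the 13 probe sets, 12 turned direction, in 4 probe sets. With array weights GSDMB was at 0.018, GSDME at -0.075 and CHMP4C at -0.019, and with the mean of probe sets IKZF3 was at -0.007 and GSDMA at -0.025, against -0.117 for its brighter probe set. With 1 array left out, GSDMB ran from -0.225 to 0.315 (turning without PRMT5_down replicate 1 or 3 or control replicate 2), GSDME from -0.097 to 0.123 (without PRMT5_down replicate 1 or control replicate 3), NINJ1 from -0.23 to 0.195 (without PRMT5_down replicate 2 or control replicate 1 or 3) and IL18 from -0.043 to 0.437 (without PRMT5_down replicate 1 or control replicate 2). Likewise CASP5 ran from -0.227 to 0.083, CHMP2A from -0.35 to 0.01, CHMP4C from -0.047 to 0.263, IKZF3 from -0.025 to 0.155, ZPBP2 from -0.022 to 0.183, THRA from -0.003 to 0.287, IRF1 from -0.243 to 0.04 and RELA from -0.053 to 0.307. With no turn of sign, the brighter GSDMD probe set ran from -0.237 to -0.007 (-0.069 with array weights), CASP1 from 0.312 to 0.692, NLRP1 from -0.423 to -0.078, IL1A from 0 to 0.472 (0.114 with array weights) and IRF2 from 0 to 0.395 (0.105 with array weights), while NLRP1 was at -0.148 with the mean of probe sets. The cause was not tested. Leaving out the lowest 50% kept only NINJ1, IL18 and GSDMB of the members. With backgrounds chosen after seeing the data, members above background on all arrays numbered 5, GSDMA among them, at the 90th percentile and 1, NINJ1, at the 99th. Signals close to background limit what the other members can show.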

Other observations

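Markers of epithelia, where several gasdermins are best known, were split. EPCAM had 9.13, 8.97 and 8.58 in PRMT5_down and 9.33, 8.87 and 8.41 in control, and the keratin gene KRT8 9.73, 9.82 and 9.99 in PRMT5_down and 9.76, 9.83 and 10.21 in control. KRT18 and KRT14 were also above background on all 6 arrays, while CDH1 was above it on none. Of these 6 genes 2 were higher and 4 lower, with 0 called by limma and 0 at an unadjusted p under 0.05 in either fit, where 0.822% of all genes were without the replicate block and 8.25% with it.

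Of 6 T and NK cell markers, 3 were higher, 2 lower and 1 at 0, and CD3D and NKG7 were above background on all arrays. NKG7 was close to background, with 5.01 on control replicate 2 against a background of 4.91 there. CD3D, a chain of the T cell receptor complex, had 7.39, 6.64 and 8.42 in PRMT5_down and 7.54, 6.81 and 8.20 in control, highest in number 3 and lowest in number 2 in both groups. Of 6 granulocyte markers 1 was higher and 5 lower, and the 1, PRG2, was the only one above background on all arrays. PRG2, an eosinophil granule protein gene, had 7.75, 9.61 and 8.46 in PRMT5_down and 5.68, 7.91 and 7.46 in control. Its difference was 1.59 (SE 0.71), and it was higher within all 3 numbers, as 11.7% of all genes were (limma adjusted p = 1, and 0.191 with the replicate block). All 3 genes tied to t(4;14) myeloma, NSD2, FGFR3 and CCND2, were above background on all arrays, 2 higher and 1 lower. None of these genes was called by limma. At an unadjusted p under 0.05 stood 0 of them, where 0.822% of all genes did. With the replicate block 1 of 6 T and NK cell markers, 1 of 6 granulocyte markers and 0 of 3 myeloma genes did, where 8.25% of all genes did.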
